A study of Danio rerio with 18 samples.

Results

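A stretch of zebrafish 28S rRNA with 10 ribose-methylated nucleotides is described here, those that the authors list under a human number of 3000 to 3799. Within that list they were taken by number alone, not by any measured value. They are 10 of the 98 listed rRNA sites and of the 60 in 28S rRNA. The choice was made with earlier results of these data known. Libraries were made from unfertilized eggs (3), embryos at the 32-cell stage (3), embryos at the 12-somite stage (3), larvae at protruding-mouth (3) and the adult tail (2), biological replicates per the series' design text. The labels name no genotype or treatment. They call the adult material tail, and the design text adds the word trunk.

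Most ribose methylations of rRNA are placed by fibrillarin, a methyltransferase that box C/D small nucleolar RNAs guide to the target by base pairing. The stretch belongs to domain IV of the large subunit rRNA, which forms much of the face turned to the small subunit. In human, SNORD88, SNORD36, SNORD87, SNORD46 and SNORD15 are known as guides for Cm3680, Am3703, Gm3723, Am3739 and Am3764. Zebrafish have an early (maternal) rRNA stored in the egg and a late (somatic) rRNA made later. The files name no guide for zebrafish.

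RiboMeth-seq reads a methyl group as a gap among the ends of alkali-broken fragments, since the methylated ribose protects the bond beside it. The RiboMeth-seq score compares the read ends at a nucleotide with those at 6 positions on either side. It runs from 0 for no protection to 1 for full protection.

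The 10 sites lay within 192 nucleotides, at positions 2887 to 3078 of the early and 2775 to 2966 of the late rRNA, counted from 1 on the RNA strand as the files number them. The listed neighbours outside the stretch are 2863 and 3804 in human numbering. Consecutive sites were 74, 17, 6, 20, 16, 25, 7, 16 and 10 nucleotides apart, and 4 were adenosines, 3 guanosines, 2 cytidines and 1 a methylated pseudouridine. Each is given here with 10 nucleotides on either side in early rRNA, 5′ to 3′, so that the sites can be located and compared. The capital is the methylated nucleotide.
28S-Gm3606 (early 2887, late 2775): gcggaccaggGgaauccgacu
28S-Cm3680 (early 2961, late 2849): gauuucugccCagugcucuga
28S-Am3697 (early 2978, late 2866): cugaaugucaAagugaagaaa
28S-Am3703 (early 2984, late 2872): gucaaagugaAgaaauucaac
28S-Gm3723 (early 3004, late 2892): cgaagcgcggGuaaacggcgg
28S-Am3739 (early 3020, late 2908): ggcgggaguaAcuaugacucu
28S-Am3764 (early 3045, late 2933): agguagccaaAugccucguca
28S-Gm3771 (early 3052, late 2940): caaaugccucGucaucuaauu
28S-Cm3787 (early 3068, late 2956): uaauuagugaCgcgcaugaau
28S-Ψm3797 (early 3078, late 2966): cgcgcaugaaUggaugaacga

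Early and late rRNA differed at 3 positions of the stretch, U2929G, C2930U and C2994U, written as the early base, the early position and the late base. None lay within the 6 positions on either side that enter a score. C2994U lies 10 nucleotides from Am3703 and from Gm3723, so these were the only sites whose printed windows differed in late rRNA, which reads gucaaagugaAgaaauucaau and ugaagcgcggGuaaacggcgg. Am3697 and Am3703 stand 6 nucleotides apart, and each falls in the outermost scoring position of the other. Leaving listed neighbours out of the scoring positions moved 0 of the 50 stage means of the 10 sites by 1 SD or more. Only Am3697 and Am3703 have another of the 10 sites among their scoring positions, so most of these means could not move. At Am3697 the stage SDs were wide, from 0.0565 in egg to 0.179 at 12-somite.

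The libraries held 1494730 read ends (adult library A) to 15358081 (egg library 1). The scoring positions of the 10 sites held on average at least 182 read ends in every library, the lowest being Gm3771 in adult library A. Counts cover reads, not independent molecules, so count-based intervals cover counting error only.

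All 10 nucleotides were highly methylated at every stage measured. The mean score of a site over the 14 libraries ran from 0.862 (Am3697) to 0.977 (Am3739), with a median of 0.927 against 0.931 over all 98 sites. Each stage mean of the 10 sites was at least 0.75, as at 83 of the 98 sites (84.7%), but Am3697 at 12-somite fell to 0.726 without 12-somite library 2. In 139 of 140 library values the score was at least 0.75. The exception was Am3697 in 12-somite library 3. Over all 98 sites, 127 of 1372 library values were under 0.75. No stage test passed its threshold at any of the 10. Of all 98 sites, limma's stage tests passed 0% to 6.12%, depending on the comparison.

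**Figure D1:**
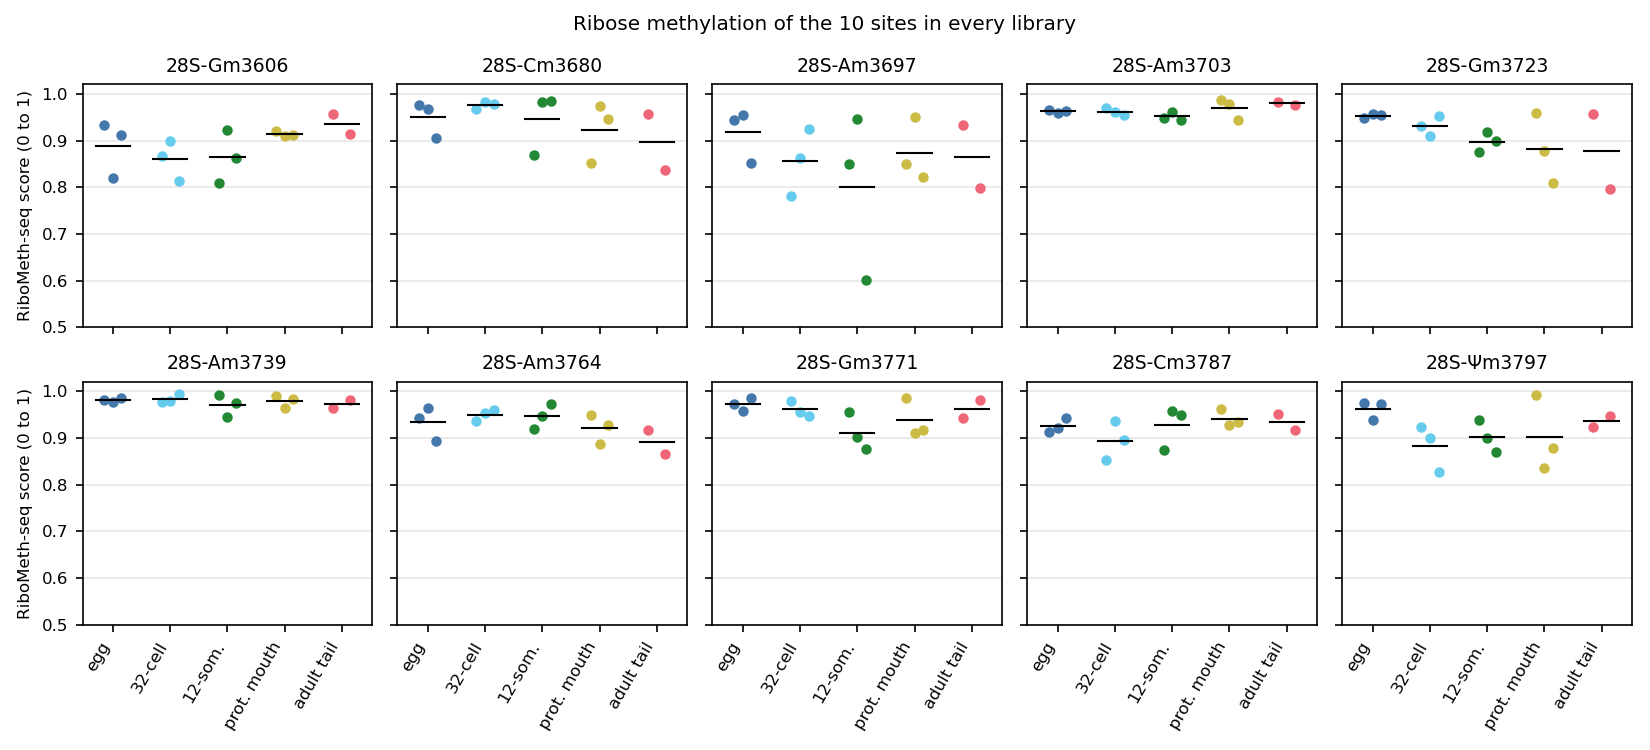
Score of each of the 10 sites (vertical axis, RiboMeth-seq score, drawn from 0.5 to 1) in every library of the 5 stages (horizontal axis). Points are libraries and bars stage means; all values lie above 0.75 except Am3697 in 12-somite library 3, at 0.601.

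The highest and least variable sites were the adenosines Am3739 and Am3703. Am3739 scored 0.980, 0.977 and 0.986 in the 3 egg libraries, 0.977, 0.978 and 0.994 at 32-cell, and 0.991, 0.944 and 0.974 at 12-somite. It scored 0.989, 0.964 and 0.983 at protruding-mouth and 0.965 and 0.982 in adult libraries A and B. All stages overlapped, and the stage means spanned 0.0132, from 0.970 at 12-somite to 0.983 at 32-cell.

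Am3703 scored 0.965, 0.960 and 0.963 in egg, 0.970, 0.961 and 0.955 at 32-cell, and 0.948, 0.962 and 0.945 at 12-somite. It scored 0.986, 0.978 and 0.943 at protruding-mouth and 0.983 and 0.976 in adult tail. The adult libraries lay above all egg, 32-cell and 12-somite libraries, and consecutive stages overlapped. Egg and adult tail did not overlap at 32.7% of all sites. For adult tail against 32-cell and against 12-somite this was not counted. The 2 sites had within-stage standard deviations of 0.0140 and 0.0118, against a median of 0.0355 over all 98 sites. At egg the spread of Am3703, an SD of 0.00259 (n = 3), was 0.543 times that of counting error alone.

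Cm3680, Gm3771, Am3764 and Cm3787 formed a middle range, with means over libraries from 0.924 to 0.948. Cm3680 scored 0.976, 0.967 and 0.906 in egg, 0.967, 0.983 and 0.977 at 32-cell, and 0.868, 0.982 and 0.985 at 12-somite. It scored 0.851, 0.973 and 0.945 at protruding-mouth and 0.956 and 0.837 in adult tail. Its low values came from 1 library of a stage, since egg library 3, 12-somite library 1, protruding-mouth library 1 and adult library B stood below the others of their stage. Of these, 12-somite library 1 and protruding-mouth library 1 carried the same barcode, and a part of the barcode in this was not tested.

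Gm3771 scored 0.973, 0.957 and 0.985 in egg, 0.979, 0.956 and 0.947 at 32-cell, and 0.956, 0.902 and 0.875 at 12-somite. It scored 0.985, 0.910 and 0.918 at protruding-mouth and 0.942 and 0.982 in adult tail. Its lowest values were 12-somite libraries 3 and 2, while 12-somite library 1 lay inside the 32-cell range. Its 12-somite mean was 0.911 ± 0.0414 (SD, n = 3), against 0.961 ± 0.0164 (n = 3) at 32-cell.

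Am3764 scored 0.942, 0.964 and 0.893 in egg, 0.936, 0.953 and 0.960 at 32-cell, and 0.920, 0.947 and 0.972 at 12-somite. It scored 0.948, 0.887 and 0.927 at protruding-mouth and 0.918 and 0.866 in adult tail. The lowest library was adult library B, and consecutive stages overlapped. Am3764 and Gm3771 lie 7 nucleotides apart, and their lowest stage means fell at different stages, adult tail and 12-somite.

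Cm3787 scored 0.912, 0.921 and 0.942 in egg, 0.852, 0.936 and 0.895 at 32-cell, and 0.873, 0.959 and 0.949 at 12-somite. It scored 0.962, 0.927 and 0.935 at protruding-mouth and 0.950 and 0.917 in adult tail. The lowest values were 32-cell library 1 and 12-somite library 1, and its stage means spanned 0.0474.

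The methylated pseudouridine Ψm3797, at the 3′ end of the stretch, scored 0.975, 0.938 and 0.972 in egg, 0.923, 0.899 and 0.826 at 32-cell, and 0.939, 0.900 and 0.870 at 12-somite. It scored 0.991, 0.837 and 0.878 at protruding-mouth and 0.923 and 0.947 in adult tail. All 3 egg libraries lay above all 3 32-cell libraries, while the 12-somite libraries overlapped both stages. The protruding-mouth libraries alone spanned most of the range seen at this site.

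Gm3723 scored 0.948, 0.957 and 0.955 in egg, 0.932, 0.910 and 0.952 at 32-cell, and 0.876, 0.917 and 0.900 at 12-somite. It scored 0.959, 0.877 and 0.810 at protruding-mouth and 0.957 and 0.796 in adult tail. The egg libraries lay close together (SD 0.00494, n = 3), whereas the adult libraries stood far apart (SD 0.114, n = 2), and adult library A equalled the highest egg library to 3 decimals.

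Gm3606, the 5′ site of the stretch, scored 0.934, 0.819 and 0.913 in egg, 0.866, 0.898 and 0.814 at 32-cell, and 0.810, 0.922 and 0.863 at 12-somite. It scored 0.920, 0.909 and 0.911 at protruding-mouth and 0.957 and 0.915 in adult tail. The egg, 32-cell and 12-somite libraries overlapped, while the protruding-mouth and adult libraries lay above all 32-cell libraries. These pairs of stages were not tested, and how often they separate over all sites was not counted. Its protruding-mouth SD of 0.00589 (n = 3) was 0.698 times the counting error.

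Am3697 had the lowest mean and the widest spread of the 10 sites in the scores as deposited. With the barcode-corrected scores its mean was 0.8899, next to 0.8894 at Gm3606, which was then the lowest, and its spread was still the widest. It scored 0.945, 0.956 and 0.853 in egg, 0.781, 0.863 and 0.924 at 32-cell, and 0.850, 0.947 and 0.601 at 12-somite. It scored 0.851, 0.950 and 0.821 at protruding-mouth and 0.933 and 0.799 in adult tail. Every stage overlapped every other, and 12-somite library 3 lay below all other libraries. Its within-stage SD was 0.104, the 15th highest of the 98 sites, and 0.0728 without 12-somite library 3. At 12-somite its SD was 33.2 times the counting error.

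In that library the score of 0.601 had a 95% Poisson interval of 0.591 to 0.610, on 6687 read ends at the site. Of these, 6677 were 3′ ends and 10 were 5′ ends. In 12-somite library 1 the site held 466 3′ and 17 5′ ends, and in library 2 151 and 19. The scoring positions around it were also fuller in library 3. Their weighted mean of both ends together was 16755 there, against 3228 in library 1 and 3214 in library 2. Taken alone, the 5′ ends of library 3 gave a score of 0.985, and the 3′ ends 0.585. The authors' deposited overview gives a 12-somite mean of 0.927 for Am3697, marked as corrected for a barcode effect. The libraries as deposited averaged 0.799 ± 0.179 (SD, n = 3), and putting the 5′ score in for library 3 gave the authors' value. That choice of library is inferred from the match. This was the only corrected mean of the 10 sites, of 25 corrected means at 11 sites in all.

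**Figure D2:**
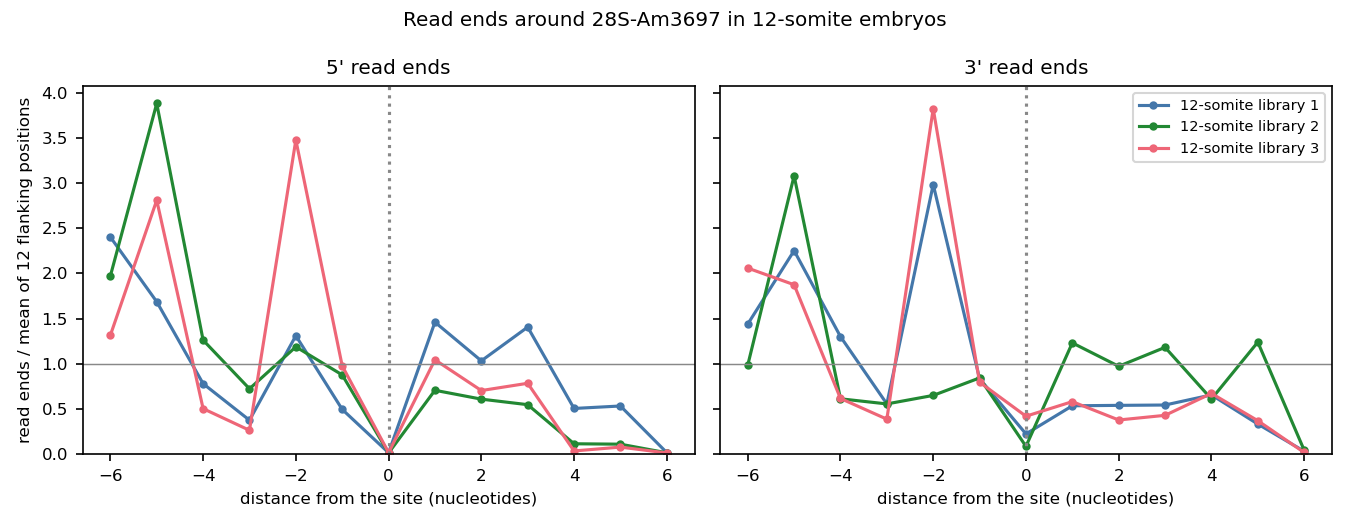
Read ends at Am3697 and 6 positions on either side (horizontal axis, distance in nucleotides) in the 3 12-somite libraries, divided by the mean of the 12 flanking positions (vertical axis). 5′ ends drop to near 0 at the site in all 3 libraries, while 3′ ends drop less in library 3, which has a tall peak 2 positions upstream.

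12-somite library 1 and protruding-mouth library 1 shared a barcode that neither adult library carried. All 3 later stages shared 2 further barcodes in a balanced way: 12-somite library 3, protruding-mouth library 3 and adult library B carried one, and 12-somite library 2, protruding-mouth library 2 and adult library A the other. Am3697 was lower with the former barcode in all 3 stages, by differences of -0.346, -0.129 and -0.134. Gm3723 differed in the same direction, by -0.0173, -0.0672 and -0.161, as did Am3703, while Am3739 was higher in all 3. The other 6 sites were mixed. Over all 98 sites 23 were lower in all 3 stages, 22 higher and 53 mixed. With barcode as a block, 0 of the 10 sites passed in the 3 comparisons of stages where it could be fitted in limma. Of the 98 sites 1 passed (1.02%) from egg to 32-cell, 1 (1.02%) from 12-somite to protruding-mouth and 4 (4.08%) from protruding-mouth to adult tail.

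The comparisons between stages ask whether methylation of these nucleotides changed in development, from egg to 32-cell, to 12-somite, to protruding-mouth and to adult tail, and from egg to adult tail directly. Scores of all 98 sites were fitted with limma, and p-values were adjusted over the 98 by the Benjamini-Hochberg method with a threshold of 0.05. Protruding-mouth and adult libraries were mapped to late rRNA and the others to early rRNA, so in comparisons across that change stage and reference cannot be told apart. Egg and 32-cell libraries shared no barcode with the later stages. From 32-cell to 12-somite and from egg to adult tail, stage and barcode therefore cannot be told apart either. Other pairs of stages were not tested, also where libraries did not overlap. Examples are egg above 12-somite at Gm3723 and Gm3771, and protruding-mouth and adult tail above 32-cell at Gm3606. At Gm3771 the lowest egg library (0.9569) and the highest 12-somite library (0.9564) were nearly level. Adult tail also lay below 32-cell at Cm3680 and Am3764, and above 32-cell and 12-somite at Am3703. How often such pairs separate over all sites was not counted.

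From egg to 32-cell, 0 of the 10 sites passed in limma, where 0 of 98 sites passed (0%), and 0 had an unadjusted p under 0.05 against 5 of the 98. Ψm3797 had the largest difference, with a mean of 0.962 ± 0.0207 (SD, n = 3) in egg and 0.883 ± 0.0501 (n = 3) at 32-cell. The change was -0.0791 (SE 0.0378, 95% interval -0.163 to 0.00455, limma adjusted p 0.603). It was the only one of the 10 without overlap of the libraries, as at 14.3% of all sites. With 5′ ends alone its change was 0.0010, so the direction turned, and edgeR's quasi-likelihood test on the counts gave an unadjusted p of 0.0391 and an adjusted p of 0.473. Of the 10 sites 7 were lower and 3 higher at 32-cell, and the median change was -0.0165 against -0.0060 over all sites.

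From 32-cell to 12-somite, 0 of the 10 sites passed in limma (all sites 0%), and 0 had an unadjusted p under 0.05 against 5 of the 98. None was free of overlap, against 7.14% of all sites. Am3697 had the largest difference, -0.0568 (SE 0.0798, limma adjusted p 0.847). It turned to 0.0425 without 12-somite library 3, and to 0.0712 with the barcode-corrected scores. Gm3771 had the lowest p, with a change of -0.0497 (SE 0.0246, 95% interval -0.104 to 0.00485, limma adjusted p 0.785). The change was -0.0317 without 12-somite library 3 and -0.0723 without 12-somite library 1. Its direction did not turn without any 1 library of these stages. At 12-somite 7 sites were lower and 3 higher, with a median change of -0.0117 against -0.0038 over all sites. Leaving out 1 library of the stages compared turned the direction at 5 of the 10. From 12-somite to protruding-mouth 4 were lower and 6 higher.

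From 12-somite to protruding-mouth, where the rRNA reference changes, 0 of the 10 sites passed in limma (all sites 0%), and 0 had an unadjusted p under 0.05 against 6 of the 98. None was free of overlap, against 7.14% of all sites. Am3697 again had the largest difference, 0.0747 (SE 0.0798, limma adjusted p 0.967), which turned to -0.0245 without 12-somite library 3. Gm3606 followed with 0.0485 (SE 0.0351, limma adjusted p 0.941), which was 0.0208 without 12-somite library 1 and 0.0772 without 12-somite library 2.

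From protruding-mouth to adult tail, 0 of the 10 sites passed in limma, against 6 of 98 sites (6.12%), and 0 had an unadjusted p under 0.05 against 13 of the 98. None was free of overlap, against 33.7% of all sites. The changes ran from -0.0291 at Am3764 to 0.0335 (SE 0.0422, limma adjusted p 0.808) at Ψm3797. The change of Ψm3797 ran from 0.0009 without protruding-mouth library 2 to 0.0781 without protruding-mouth library 1, and turned to -0.0453 on the logit scale. That of Am3764 was -0.0032 without adult library B and -0.0551 without adult library A. Their median size was 0.0165, against 0.0279 over all sites.

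From egg to adult tail, 0 of the 10 sites passed in limma, against 3 of 98 sites (3.06%), and 0 had an unadjusted p under 0.05 against 12 of the 98. Gm3723 had the largest difference, with a mean of 0.953 ± 0.00494 (SD, n = 3) for egg against 0.877 ± 0.114 (n = 2) for adult tail. It amounted to -0.0766 (SE 0.0462, 95% interval -0.179 to 0.0258, limma adjusted p 0.484). This difference rested on adult library B: without it the change was 0.0037, and without adult library A it was -0.157 (limma adjusted p 0.143). In edgeR's quasi-likelihood test the unadjusted p of Gm3723 was 0.0429 and the adjusted p 0.261. Am3703 was the only site whose libraries did not overlap, as at 32.7% of all sites, with a change of 0.0171 (SE 0.0135, limma adjusted p 0.635).

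Over all 5 stages together, limma's F test called 0 of the 10 sites, against 3 of 98 (3.06%), and 0 had an unadjusted p under 0.05 against 12 of the 98. The lowest p belonged to Gm3771 (limma adjusted p 0.555). edgeR's quasi-likelihood test called 0 of the 10 sites in each of the 6 comparisons. Over all 98 sites it called 0 (0%) in each of the first 3 pairs of stages, 4 (4.08%) from protruding-mouth to adult tail, 7 (7.14%) from egg to adult tail and 6 (6.12%) over all stages.

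Missing the threshold does not show equal methylation, and the intervals set how far the data reach. The 95% interval of the change lay within 0.1 either way at 5 sites from egg to 32-cell, 5 from 32-cell to 12-somite, 6 from 12-somite to protruding-mouth, 5 from protruding-mouth to adult tail and 5 from egg to adult tail. From egg to adult tail the interval was -0.0129 to 0.0471 for Am3703 and -0.250 to 0.146 for Am3697. The intervals use a spread shared by all 5 stages, so that of Am3697 also reflects 12-somite library 3, of neither stage. The within-stage SD of Am3697 was 0.104, and 0.0728 without that library. The range of the 5 stage means was under 0.1 at 9 of the 10 sites, as at 68 of the 98 (69.4%), with Am3697 at 0.118. For Am3697 the range was 0.0616 without 12-somite library 3 and 0.0712 with the barcode-corrected scores, and in both cases all 10 sites were under 0.1. Without egg library 2 all 10 were as well (Am3697 at 0.0994), while without protruding-mouth library 1 or adult library A 7 were.

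**Figure D3:**
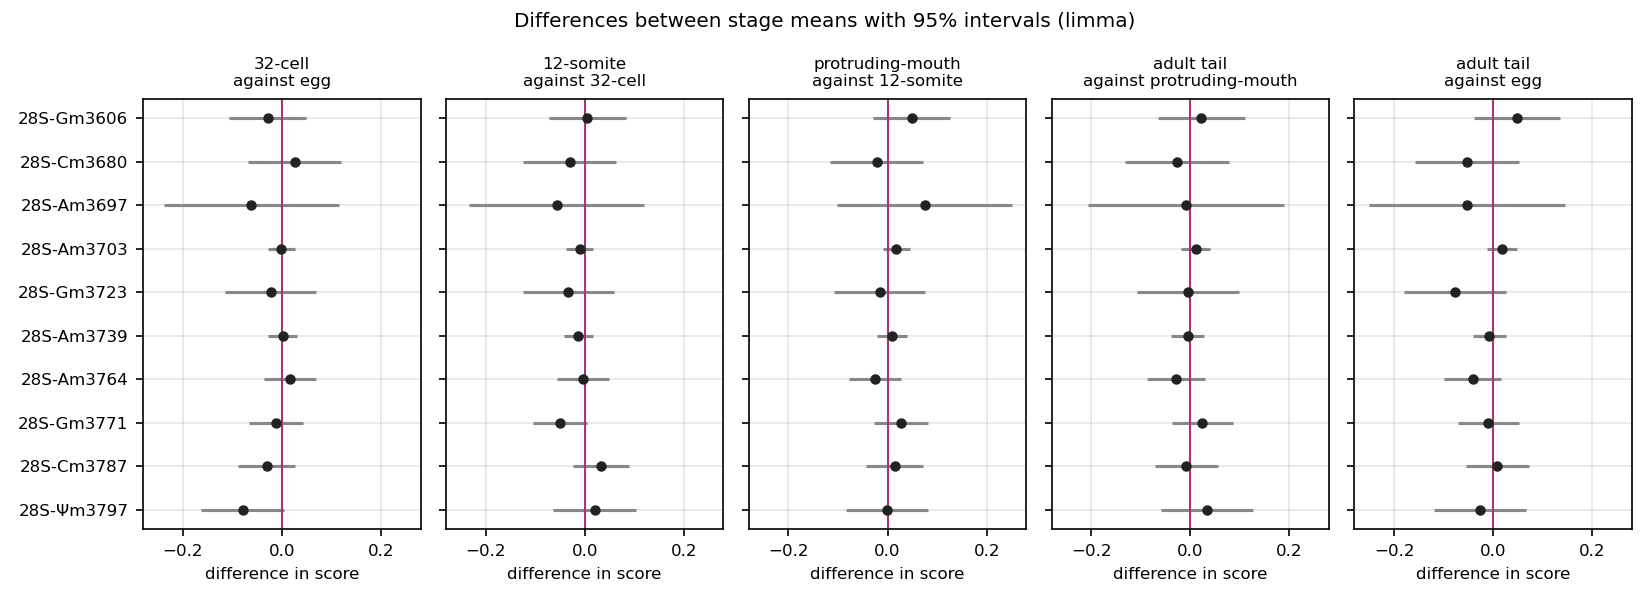
Difference in mean score between stages (horizontal axis) for each of the 10 sites (vertical axis) in the 5 pairwise comparisons, later minus earlier stage, with 95% intervals from limma. All 50 intervals include 0; those of Am3703 and Am3739 are narrow and those of Am3697 the widest.

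Scores of these sites also differed by which read ends were used. Scores from 5′ and from 3′ ends were computed in the 12 libraries from egg to protruding-mouth. For the adult libraries only the counts of both ends together were used, so no adult score was split by end. Over the 10 sites the median score was 0.982 from 5′ ends and 0.913 from 3′ ends, against 0.970 and 0.928 over all sites. The 5′ score was the higher in 111 of 120 pairs of library and site (92.5%), against 865 of 1163 (74.4%) over all sites. That the shares differ was not tested.

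In an exact two-sided sign-flip test over the 12 libraries, chosen after the data were seen and adjusted over 97 sites, 9 of the 10 sites scored higher from 5′ ends, against 55 of 97 sites (56.7%). The smallest p this exact test can give is 0.000488. The 9 were all but Gm3771, whose exact adjusted p was 0.0710. Without 12-somite library 3 all 10 passed, against 54 of 97 sites (55.7%), and with 2 scoring positions on either side 8 did, against 56 of 97 (57.7%). The libraries share barcodes across stages, so they are not fully independent in this test.

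Am3697 had the largest difference between the ends, 0.186 ± 0.123 (SD, n = 12), higher from 5′ ends in 12 of 12 libraries (exact adjusted p 0.00169). Its 5′ scores ran from 0.954 through a median of 0.981 to 0.987, and its 3′ scores from 0.564 through 0.820 to 0.916. The 2 ranges did not overlap, and the 5′ median of Am3697 lay within that of the other sites, which ran from 0.942 at Gm3606 to 0.994 at Am3739.

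Cm3787 differed by 0.118 ± 0.0790 (SD, n = 12), with the 5′ score higher in 11 of 12 libraries (exact adjusted p 0.00374). Its 3′ scores ran from 0.756 through a median of 0.858 to 0.965 and its 5′ scores from 0.928 through 0.989 to 0.998. The 3′ stage means from egg to protruding-mouth were 0.805, 0.814, 0.918 and 0.922, and the 5′ stage means 0.992, 0.985, 0.962 and 0.992. With 3′ ends alone its change from 32-cell to 12-somite was 0.104 (limma unadjusted p 0.0194, adjusted p 0.892). Ψm3797 differed by 0.0923 ± 0.0616 (n = 12) and Gm3606 by 0.0871 ± 0.0486 (n = 12), each in 12 of 12 libraries. The smallest difference was at Am3703, 0.0183 ± 0.0205 (n = 12), higher in 10 of 12.

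Gm3771 held the lowest 5′ score of the stretch, 0.843, in 12-somite library 3. Its median was 0.983 from 5′ ends and 0.915 from 3′ ends, and the 5′ score was higher in 11 of 12 libraries. Pooled over the 4 stages, the within-stage SD was lower with 5′ ends alone than with both ends at each site but Gm3771. Single stages did not always follow this. At Gm3723 the SD from 5′ ends and from both ends was 0.00634 and 0.00494 in egg, and 0.0211 and 0.0207 at 32-cell. It was 0.0339 and 0.0209 at 12-somite, and 0.00517 and 0.0745 at protruding-mouth. The median within-stage SD over the 4 stages was 0.0129 for 5′ ends, 0.0527 for 3′ ends and 0.0368 for both together. Over all sites the same medians were 0.0219, 0.0595 and 0.0370.

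**Figure D4:**
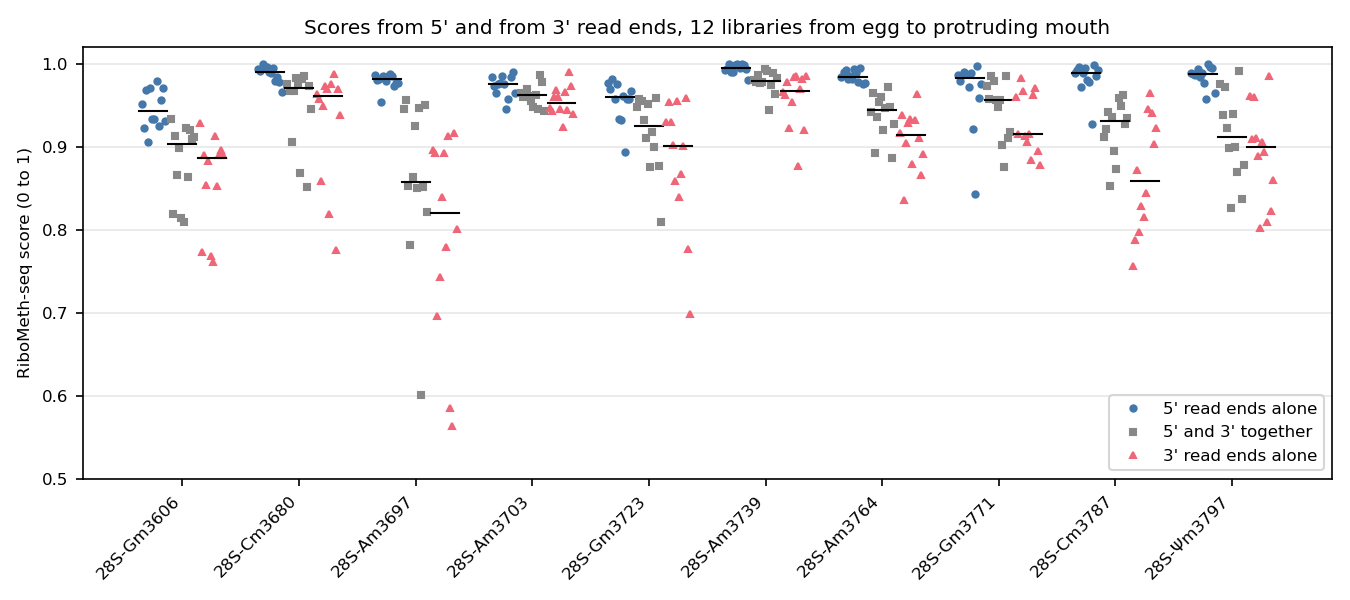
Scores of the 10 sites (horizontal axis) from 5′ ends alone, both ends and 3′ ends alone (vertical axis, RiboMeth-seq score, drawn from 0.5 to 1) in the 12 libraries from egg to protruding-mouth, with bars at medians. 5′ scores gather near 1, and 3′ scores spread lowest at Am3697, down to 0.564.

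The 182 nucleotides of the stretch that are not listed show what the assay gives without a listed methylation. Their median scores over the 14 libraries ran from 0 to 0.711, with a median of 0.102, and 0 of them reached 0.75 in every library. Among the 10 listed sites 9 did, as did 76 of all 98 listed sites (77.6%). The lowest median of a listed site, 0.858 at Am3697, lay above the highest of an unlisted nucleotide. The list comes from the authors' overview of these same scores. Whether it was drawn up independently of them is not known here, so this gap is no separate test of the list.

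The unlisted nucleotides with the highest lowest score were a U at early position 3028 (late 2916), a G at 3069 and a U at 3030 (late 2918). The U at 3028, 8 nucleotides past Am3739, ranged from 0.474 through a median of 0.711 to 0.838 and reached 0.75 in 6 libraries. The G at 3069 follows Cm3787 directly and ranged from 0.422 through 0.605 to 0.807, reaching 0.75 in 3 libraries. The U at 3030 ranged from 0.376 through 0.674 to 0.922 and reached 0.75 in 4. All 3 had scores under 0.5 in some library, which 0 of the 10 sites of this stretch had.

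**Figure D5:**
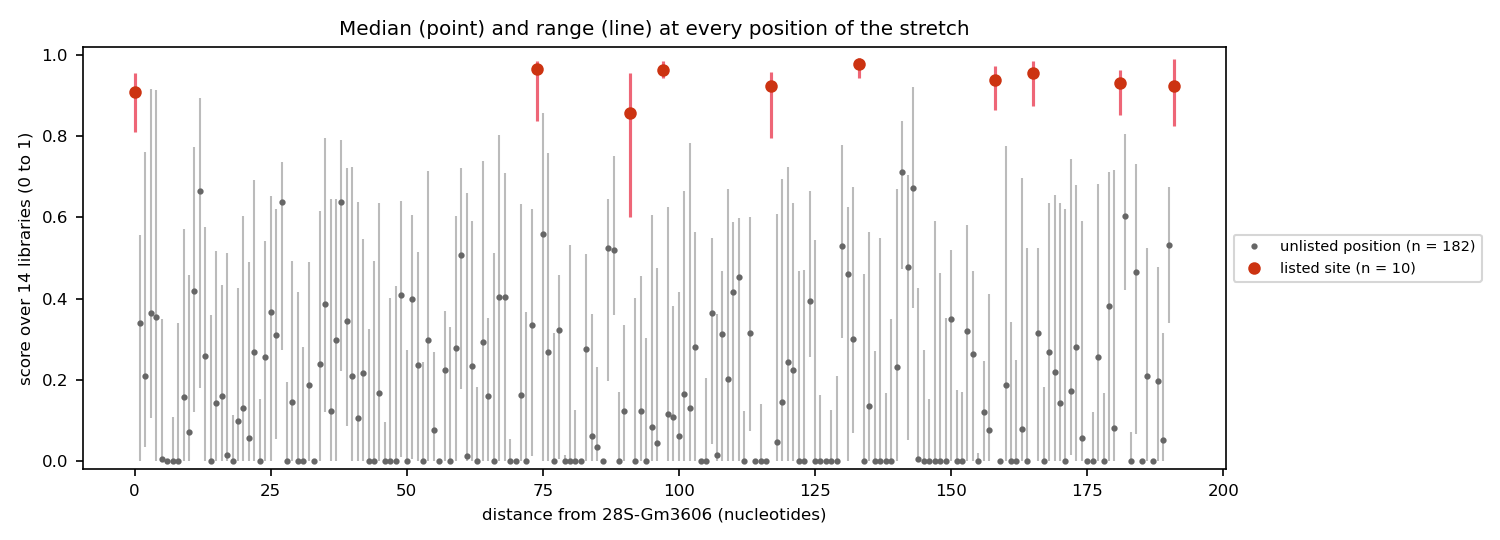
Median score (points) and range over the 14 libraries (lines) at each nucleotide of the stretch, by distance in nucleotides from Gm3606 (horizontal axis). The 10 listed sites have medians of 0.858 or more, and the 182 unlisted nucleotides medians of 0.711 or less.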

How the data were processed

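Ribose methylation was measured by RiboMeth-seq in 14 libraries. Per the labels' protocols, alkali broke the RNA, pieces of 20 to 40 nt received linkers through a modified plant tRNA ligase, and an Ion Proton sequenced them. Trimming with cutadapt 2.0 and mapping with Bowtie2 2.3.4.1 are named in the submitters' processing notes. Per the file headers, egg, 32-cell and 12-somite libraries were set against early rRNA and the other stages against late rRNA. The deposited counts are read ends per rRNA position, 5′ ends, 3′ ends and both, without normalization. The deposited fraction of each library is its RiboMeth-seq value from 0 to 1, and the authors' overview holds it as a score averaged by stage, with some means corrected for barcodes, as its header states.

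Scores were recomputed from the counts as 1 minus the ends at a position over the weighted mean of 6 positions on either side (weights from 1 to 0.5), limited at 0. In the libraries from egg to protruding-mouth they differed from the deposited fraction by at most 4.97e-13. The adult scores were not compared with the deposited fraction of each library. The adult column numbers do not match the sample titles, so the adult libraries are called A and B and carry scores computed from their counts. Over all libraries together, 34 other columns of values were not used, nor were 4 small-RNA samples. For the adult libraries only the counts of both ends together were used.

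Sites needed a mean of 10 read ends over the 12 scoring positions in every library, which all 98 had. Untransformed scores were fitted with limma 3.58.1 in R 4.3.3, with stage means and a spread shared by the 14 libraries. edgeR 4.0.16 was run as an alternative on the read ends at each site with the scoring mean as offset. The limma fit and the sign-flip test were tested on simulated data. Same-numbered libraries deviated from their stage means together between 32-cell and 12-somite (correlations across 98 sites of 0.281, 0.565 and 0.230) and between 12-somite and protruding-mouth (0.588, 0.571 and 0.450, with shared barcodes), but not between egg and 32-cell (-0.218, -0.245 and -0.004). Titles give the numbers. All members were named, with the 3 unlisted positions of highest lowest score. The sites, lists and tests were chosen with earlier results of these data known. Tables used pandas 2.3.3 and numpy 2.4.6, tests scipy 1.17.1 and figures matplotlib 3.10.9, under Python 3.11.15.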

Additional observations from a re-analysis of the deposited data

How the results depend on the processing

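Across 159 alternative fits under 28 settings, 0 of 1590 tests of the 10 sites passed the adjusted threshold in limma or edgeR, and 23 (1.45%) had an unadjusted p under 0.05. Over all sites the same fits called 0 to 8 sites each and 0 in 88 fits, 261 of 15556 tests (1.68%), and 9.53% had an unadjusted p under 0.05. The fits share libraries, so their tests are not independent and the counts are no separate evidence of equal methylation. Without a coverage minimum the fit equalled the main one, since all 98 sites met the minimum. The lowest limma adjusted p was 0.143, for Gm3723 from egg to adult tail without adult library A. With the replicate number as a block, the fit covered the 4 stages from egg to protruding-mouth. It called 0 of the 10 sites in each comparison, and 0 of all 98, so the block changed no call at the 10. Barcode as a block could be fitted from egg to 32-cell, from 12-somite to protruding-mouth and from there to adult tail, and not for 12-somite against 32-cell, adult tail against egg or all stages, which share no barcode. Fits without adult tail tested 4 stages in the F test.

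Direction turned under some setting for each of the 5 differences named as largest, 1 per pair of stages. With 5′ ends alone the change of Ψm3797 from egg to 32-cell became 0.0010, that of Am3697 from 32-cell to 12-somite 0.0131 and from 12-somite to protruding-mouth -0.0103. With barcode-corrected scores the latter 2 became 0.0712 and -0.0533. Leaving out 1 library gave -0.131 to 0.0425 for Am3697 from 32-cell to 12-somite and -0.0245 to 0.149 from 12-somite to protruding-mouth, both turned by 12-somite library 3. The range was -0.157 to 0.0037 for Gm3723 from egg to adult tail, turned by adult library B. Leaving out 1 library of the stages compared turned the direction at 3 of the 10 sites from egg to 32-cell, 5 from 32-cell to 12-somite, and 6 in each of the other 3 comparisons. This count, the 3′ scores and the scores without listed neighbours were added after the data were seen. On the logit scale the change of Ψm3797 from protruding-mouth to adult tail was -0.0453. Leaving out a library or a kind of read end shows what a value depends on, and no cause was tested. Stage means moved by 1 SD or more in 30 of 40 cases with 5′ ends alone (all up), in 19 of 40 with 3′ ends alone (all down) and in 9 of 50 with 2 scoring positions on either side. Adult tail had 2 libraries, of which library A held the fewest read ends, and a score at the depth of Gm3771 there (0.942) has a counting interval of 0.893 to 0.972.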
